A study of Mus musculus with 24 samples.

Results

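Hip caps exposed to a hydrostatic pressure of 5 MPa were compared with unpressurised hip caps. The comparison took all 4 libraries of the 5 MPa group (H51 to H54) and 3 of the 4 hip cap control libraries (HC1 to HC3), which makes 7 of the 24 libraries of the series. The fourth control, HC4, stands apart from the other controls and served as a check. The series also holds hip caps at 50 MPa and metatarsals of mouse embryos (E15) at 0, 5 and 50 MPa, with 4 libraries in each of its 6 groups. RNA was depleted of ribosomal RNA and sequenced, and gene levels were estimated from the reads. By the study's methods, RNA integrity values of all samples lay under the desired minimum, which is read there as some partial degradation. Integrity values of single libraries are not given there, and the part of RNA quality in the differences between libraries was not tested.

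A hip cap is the cartilage cap of the femoral head, taken here from male mice of the strain C57/BL6 at an age of 4 weeks, with no genetic change or drug treatment. The 2 caps of a sample were pooled, and the study's methods state that both came from the same mouse, so each library stands for 1 mouse. Caps were cultured for 24 h, held for 1 h in a water-filled pressure vessel at 0 MPa (control) or 5 MPa, and cultured for another 24 h before they were frozen. Controls went through the same vessel and culture without added pressure. The labels write the unit as mPa, and the MPa of the study's methods was used here. The explant has no blood supply and no load from neighbouring bone, and what was measured is the RNA present a day after the pressure ended.

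Cartilage is a water-rich tissue in which chondrocytes are embedded in a matrix of type II collagen and aggrecan. Loading of a joint pressurises the water of this matrix, and chondrocytes respond through ion channels, calcium and the transcription factors of the immediate early response. Cartilage has no vessels, and its chondrocytes are known for making most of their ATP by glycolysis. The mitochondrial genome encodes 13 proteins, all of them subunits of the respiratory chain or of ATP synthase, and is transcribed as long precursors from which the single messages are cut.

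Library totals ran from 6731592 to 15027631 estimated counts in HC1 to HC3 and from 12736652 to 25104484 at 5 MPa, and HC4 had 21130707. Protein-coding genes of the nucleus took between 33.6% and 44.6% of the counts in HC1 to HC3 and between 47.6% and 64.2% at 5 MPa. HC1, HC2 and HC3 were sequenced in run 1 and HC4 and all 5 MPa libraries in run 2, as read from a colour strip in a figure of the study. Over the series this split of the libraries does not match the numbers of libraries per sequencing kit in the study's methods, so the assignment to runs is uncertain, and every fold change of the fit rests on it. HC3 is an unstranded library and the other 7 hip cap libraries named here are stranded. Run and pressure therefore cannot be told apart within HC1 to HC3 and H51 to H54, and in the fit the run and library type terms were set by libraries of the other groups. Through these terms the metatarsal control MC1 carried a weight of 0.56 and the metatarsal library M504 (50 MPa) one of 0.44 in the fold change, each larger than the 0.25 of a single 5 MPa library. Fold changes of the fit and ratios of the levels below can therefore differ. The terms raised the standard error 1.48-fold. HC4 lay above all 5 MPa libraries for 31.9% of the genes tested and below all of them for 41.2%. Levels below are CPM, the share of a library's counts on a common scale, with the authors' estimated counts scaled by TMM, a normalization on the bulk of the genes, and they are comparable between libraries but not between genes of different length.

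The identity of the cells was checked with markers first. Markers of chondrocytes summed to between 52450 and 82210 CPM in HC1 to HC3 and to between 30280 and 58190 CPM at 5 MPa, with the lowest value in H53, against 14440 CPM in HC4. The caps were thus rich in cartilage transcripts in all groups. Col2a1, which encodes the main collagen of cartilage, was measured at 51080, 29230 and 45220 CPM in HC1 to HC3, at 23600, 32070, 14400 and 35800 CPM in H51 to H54 and at 6501 CPM in HC4. Markers of osteoclasts, the bone-resorbing cells, summed to between 327.5 and 529.4 CPM in HC1 to HC3, to between 544.1 and 1699 CPM at 5 MPa and to 4780 CPM in HC4. H53 had the highest sums of macrophage (694.7 CPM), neutrophil (193.3 CPM) and osteoblast markers (7112 CPM) among the 5 MPa libraries. The other 3 libraries at 5 MPa had macrophage sums between 110.9 and 198.8 CPM, within the 107.2 to 318.5 CPM of HC1 to HC3. In bulk samples, fewer cells of a type and less RNA per cell cannot be told apart.

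**Figure D1:**
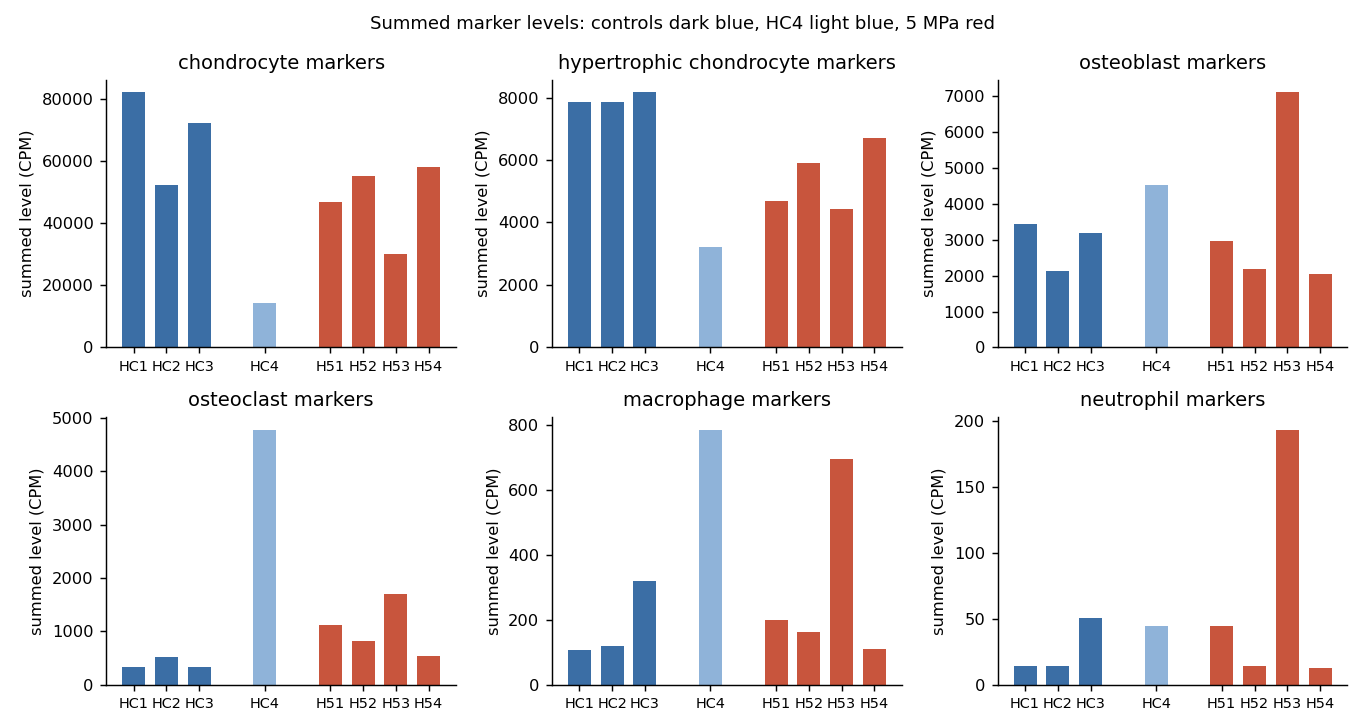
Summed CPM of the marker genes of 6 cell types (vertical axes, linear and starting at 0) in each hip cap library, with controls HC1 to HC3 in dark blue, HC4 in light blue and 5 MPa in red. HC4 has the lowest chondrocyte sum (14440 CPM) and the highest osteoclast sum (4780 CPM), and H53 the highest neutrophil sum (193.3 CPM).

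Of 21283 genes tested, 4 passed an adjusted p of 0.05 in edgeR's quasi-likelihood test (0.0188% of the genes tested), and 2 of these rose at 5 MPa and 2 fell (0.0094% each). The risers were mt-Co2, the mitochondrially encoded subunit 2 of cytochrome c oxidase, and Nutf2-ps1, a processed copy of the gene for nuclear transport factor 2. Those that fell were Gm28285 and Gm9968, both predicted genes without a known product. Without adjustment, 3145 genes had a p under 0.05 (14.8%), 8.35% of all genes on the higher and 6.42% on the lower side. In simulated data the same fit recovered 52% of the genes changed 4-fold and 5% of those changed 2-fold, with 4 false calls. Changes of 2-fold were thus mostly not detected there. The simulated data held no effect of run or library type, so these rates need not hold for the real libraries. The number of calls depended on the tool and on the libraries, with 577 genes past the threshold in DESeq2 (408 higher, 169 lower), 2027 without the batch terms (944 higher, 1083 lower), 89 over the 7 hip cap libraries alone (14 higher, 75 lower) and 0 (1259 at an unadjusted p under 0.05) in edgeR over the 8 hip cap libraries with HC4 among the controls.

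Each of the 4 genes shares sequence with another gene or overlaps one, so its estimated counts can depend on how reads were divided. The division of reads itself was not tested. For mt-Co2 and Nutf2-ps1 the shared sequence is shown here. The mt-Co2 gene lies at chrM:7013-7696 on the plus strand (GRCm38), and 681 of 681 compared bases equal those of Gm28661, a nuclear pseudogene on the minus strand of chromosome 1. Their first 60 bases, from the genome with the GENCODE M21 annotation, show why no read from inside the gene can be assigned by sequence. Lower case is kept throughout, as no base differs.
mt-Co2, chrM:7013-7072: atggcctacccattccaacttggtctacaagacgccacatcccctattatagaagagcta
Gm28661, chr1:24615506-24615565: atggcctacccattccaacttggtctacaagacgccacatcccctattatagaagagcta

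The same holds for mt-Co3 and Gm28437 (783 of 783 bases equal) and for mt-Atp6 and Gm10925 (678 of 678), so a stretch of the mitochondrial genome is present on chromosome 1 without a difference in these genes. Nutf2 codes for a carrier that brings the small GTPase Ran into the nucleus, and all 384 bases of its coding sequence recur in Nutf2-ps1 on chromosome 19. The first 60 bases of both coding sequences, again without any difference to mark in capitals, are these.
Nutf2: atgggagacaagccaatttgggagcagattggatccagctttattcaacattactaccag
Nutf2-ps1: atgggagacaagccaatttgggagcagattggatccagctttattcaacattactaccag

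The level of mt-Co2 was 78.7, 113.6 and 45.7 CPM in HC1, HC2 and HC3 and 726.2, 1430, 1343 and 868.8 CPM in H51 to H54. The groups did not overlap, and HC4 lay between them at 515.5 CPM. The log2 fold change was 3.97 (SE 0.52, adjusted p = 0.00783, edgeR). The copy Gm28661 was listed at 0, 740.3 and 0 CPM in HC1 to HC3, at 471.7 CPM in HC4 and at 624.0, 0, 372.1 and 731.9 CPM in H51 to H54. HC2 thus had most of these reads on the copy and H52 had none there. Summed over the gene and its copies, the level was 78.7, 854.7 and 45.7 CPM in HC1 to HC3, 987.6 CPM in HC4 and between 1351 and 1715 CPM at 5 MPa. The sums did not overlap either, but HC2 then stood far above HC1 and HC3, and the log2 fold change was 3.06 (SE 0.83, adjusted p = 0.152, edgeR), which did not pass.

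Nutf2-ps1 was measured at 1.36, 2.54 and 5.80 CPM in HC1 to HC3, at 14.9 CPM in HC4 and at 22.2, 21.6, 28.7 and 22.7 CPM in H51 to H54. Its log2 fold change was 2.65 (SE 0.38, adjusted p = 0.00783, edgeR). The parent gene Nutf2 went the other way in its values, with 16.3, 23.8 and 4.76 CPM in HC1 to HC3, 17.4 CPM in HC4 and 3.86, 4.00, 5.25 and 4.53 CPM in H51 to H54. Summed with Nutf2, the values overlapped between groups, as HC2 (26.4 CPM) lay above H51 (26.2 CPM) and H52 (25.6 CPM), and the log2 fold change of the sum was 0.70 (SE 0.25, adjusted p = 0.214, edgeR).

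**Figure D2:**
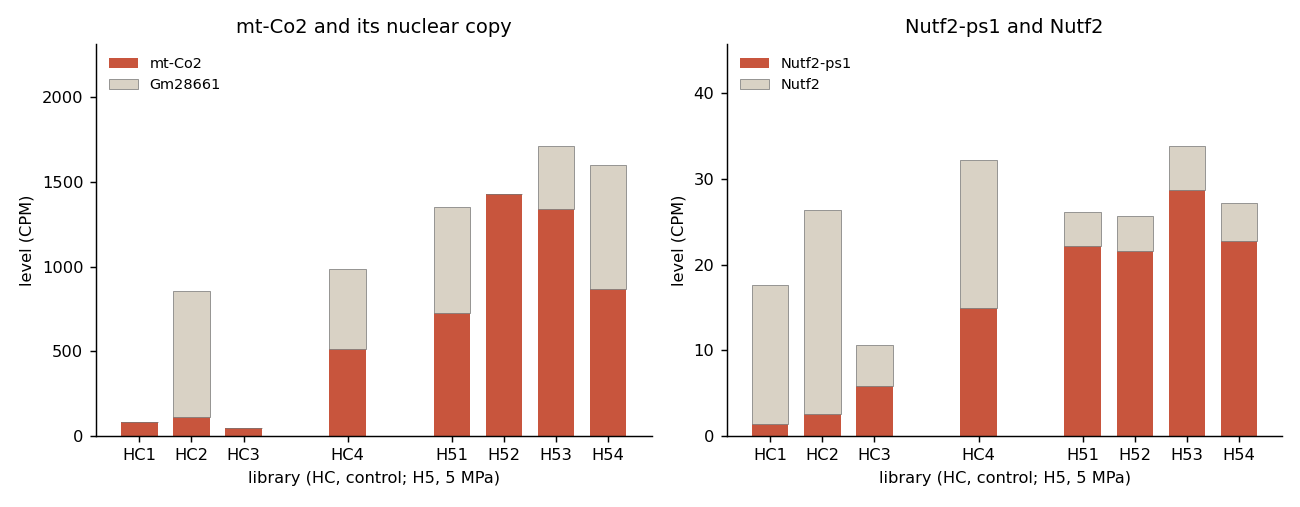
Level in CPM (linear axes from 0) of mt-Co2 with its nuclear copy Gm28661 (left) and of Nutf2-ps1 with Nutf2 (right) in each hip cap library, stacked. The red bars of mt-Co2 run from 45.7 to 113.6 CPM in HC1 to HC3 and from 726.2 to 1430 CPM at 5 MPa, and the stacked bars of Nutf2-ps1 and Nutf2 overlap between the groups.

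Gm28285, on chromosome 18, was measured at 9.77, 5.88 and 20.3 CPM in HC1 to HC3, at 1.41 CPM in HC4 and between 0.281 and 0.654 CPM at 5 MPa. All 5 MPa values lay below all control values, and the log2 fold change was -4.94 (SE 0.77, adjusted p = 0.0131, edgeR). The gene (chr18:35553404-35587708, GRCm38) overlaps Matr3 (chr18:35562138-35593835) on the same plus strand. It shares 74.8% of its words of 31 bases with Matr3, which encodes the nuclear matrix protein matrin 3. Matr3 was listed at 129.7, 198.6 and 87.7 CPM in HC1 to HC3, at 86.9 CPM in HC4 and at 141.6, 171.4, 135.0 and 164.6 CPM in H51 to H54. The sum of both had a log2 fold change of 0.28 (SE 0.21, adjusted p = 0.53, edgeR), of the opposite sign.

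Gm9968 lies at chr16:43345887-43363666 on the minus strand (GRCm38), inside Zbtb20 (chr16:42875881-43642602, plus strand), a gene of a transcriptional repressor, and is antisense to it. Its level was 0.814, 1.11 and 31.3 CPM in HC1 to HC3, 0 in HC4 and between 0.257 and 0.683 CPM at 5 MPa. The log2 fold change was -3.89 (SE 0.60, adjusted p = 0.0131, edgeR), and without HC3 it was -2.21 with an adjusted p of 0.452. HC3 is the unstranded control, and over all 24 libraries Gm9968 ran from 3.27 to 31.3 CPM in the 6 unstranded libraries and from 0 to 1.39 CPM in the 18 stranded ones. In an unstranded library, reads of Zbtb20 and of its antisense gene cannot be told apart. Zbtb20 itself was measured at 1432, 1492 and 1033 CPM in HC1 to HC3 and at 1033, 1172, 658.4 and 1238 CPM in H51 to H54.

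The other genes of the mitochondrial genome were examined next. All 13 had a log2 fold change above 0, between 2.50 and 4.49 with a median of 3.74, against a median of 0.01 over all genes tested, of which 50.9% were above 0. Only mt-Co2 passed the adjusted threshold, and all 13 had an unadjusted p under 0.05 with higher levels at 5 MPa, beside the 8.35% of all genes. In 11 of the 13 genes (84.6%) every 5 MPa value lay above every value of HC1 to HC3, which held for 8.4% of all genes tested in this direction. With HC4 among the controls this held for 8 of 13 genes (61.5%), beside 2.88% of all genes. The 13 genes are on 1 genome and were measured in the same libraries, so they are not separate observations. The median was 2.33 without HC3, 2.40 without M504, 1.60 over all 24 libraries and 0.87 within run 2, where HC4 is the only control.

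Complex I (NADH dehydrogenase) draws 7 subunits from the mitochondrial genome. mt-Nd1, of which no word of 31 bases recurs in another gene, was measured at 29.0, 527.6 and 10.9 CPM in HC1 to HC3, at 895.2 CPM in HC4 and at 994.7, 1065, 1538 and 1374 CPM in H51 to H54. The groups did not overlap, yet as a ratio HC2 was closer to the 5 MPa libraries than to HC1 and HC3. The log2 fold change of 3.96 (SE 1.09) had an adjusted p of 0.155 (edgeR). mt-Nd2, mt-Nd3, mt-Nd4, mt-Nd4l and mt-Nd5 likewise did not overlap between the groups, with log2 fold changes between 3.18 (mt-Nd5) and 4.47 (mt-Nd2). mt-Nd6, the one protein gene on the other strand of the mitochondrial genome, overlapped because HC2 reached 170.0 CPM against 90.4 CPM in H52.

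mt-Cytb, the subunit of complex III, was measured at 44.2, 748.4 and 16.6 CPM in HC1 to HC3, at 1289 CPM in HC4 and at 1468, 1407, 2334 and 1949 CPM in H51 to H54. It shares 6.6% of its words with other genes. mt-Co1, the catalytic subunit of cytochrome c oxidase, was measured at 181.3, 1962 and 68.3 CPM in HC1 to HC3 and at 3230, 3857, 4999 and 3783 CPM in H51 to H54, while HC4 at 3325 CPM lay among the 5 MPa values. mt-Atp6 of ATP synthase was measured at 9.23, 200.2 and 15.6 CPM in HC1 to HC3, at 352.6 CPM in HC4 and at 804.5, 1290, 1673 and 1290 CPM in H51 to H54, and had the highest log2 fold change of the 13 (4.49, SE 0.97, adjusted p = 0.114, edgeR). For mt-Co3 the log2 fold change was 4.11 (SE 0.89, adjusted p = 0.11, edgeR). mt-Atp8 overlapped, with 133.3 CPM in HC2 against 71.4 CPM in H52, and had 21.7 CPM in HC4.

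**Figure D3:**
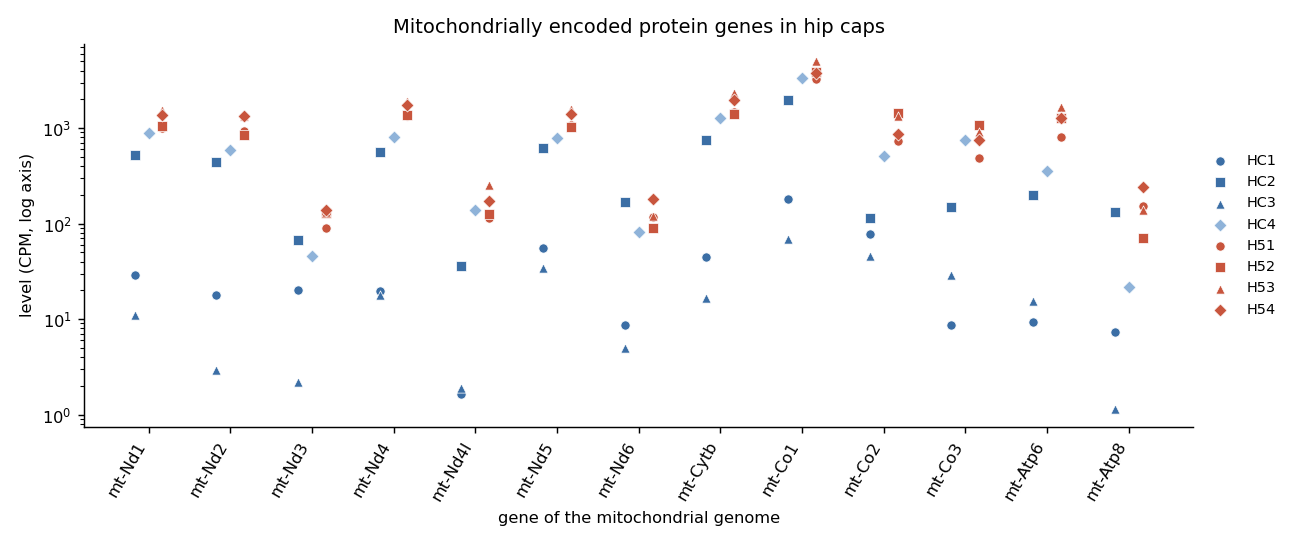
Level in CPM (log axis) of the 13 mitochondrially encoded protein genes in each hip cap library, with HC1 to HC3 in dark blue, HC4 in light blue and the 5 MPa libraries in red. HC1 and HC3 lie lowest for all genes, and HC2 and HC4 lie between them and the 5 MPa libraries for most, as for mt-Nd1 (527.6 and 895.2 CPM).

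Summed over the 13 genes, HC1 and HC3 had 482.2 and 251.2 CPM, HC2 5730 CPM, HC4 9611 CPM and H51 to H54 11550, 13810, 18300 and 15250 CPM. The 5 MPa libraries were the 4 highest, and the gap from HC2 to HC1 was larger than that from HC2 to H51 as a ratio. With the 9 nuclear copies added, the order was the same for HC1 to HC3 (573.9, 8073 and 262.7 CPM), and the 5 MPa sums ran from 13450 to 19560 CPM. The mitochondrial rRNA mt-Rnr1 was measured at 1346, 14140 and 504.5 CPM in HC1 to HC3, at 5244 CPM in HC4 and between 6364 and 11940 CPM at 5 MPa. HC2 was thus the highest hip cap library named here for this rRNA, and the groups overlapped. Without HC2, a step that can only keep or raise such counts, all 13 protein genes had no overlap between the groups, beside 21.0% of all genes. Then 1265 genes in place of 4 passed the threshold. The part of ribosomal RNA depletion in this was not tested, and the run cannot be told apart from the pressure.

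The hip caps at 50 MPa share HC1 to HC3 with this comparison, were sequenced in run 1 as those controls were, and are unstranded. mt-Co2 stood at 358.5, 924.9 and 207.3 CPM in the 3 libraries at 50 MPa that entered the fit (log2 fold change 3.48, adjusted p = 0.00877, edgeR) and at 167.8 CPM in the library left out. At 50 MPa 6 of the 13 mitochondrial genes passed the threshold, as did 5.17% of all genes tested, and the median log2 fold change over the 13 was 3.93. In the metatarsals, which have controls of their own, the median at 5 MPa was 0.23, and no gene of the table passed in edgeR's test (0.0% of 21283), with 689 genes (3.24%) at an unadjusted p under 0.05. The difference between the tissues at 5 MPa passed in the interaction test for 4 genes (0.0188%), the same 4 as above. This count was 1 without HC3 and 0 in edgeR with genes summed with their copies (2384 at an unadjusted p under 0.05), with library sizes alone (1661), with at least 10 counts in every library (1552) and over all 24 libraries (1239). For mt-Co2 it was 3.54 on the log2 scale (SE 0.55, adjusted p = 0.0298, edgeR), for Nutf2-ps1 2.75 (adjusted p = 0.0252), for Gm9968 -4.21 (adjusted p = 0.0298) and for Gm28285 -4.75 (adjusted p = 0.044). mt-Co2 ran from 882.5 to 1459 CPM in the 4 metatarsal controls, far above HC1 to HC3 and beside 726.2 to 1430 CPM in the hip caps at 5 MPa.

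Most subunits of the respiratory chain are encoded in the nucleus, and none of these genes passed the threshold. Of 36 nuclear genes of complex I, 6 lay above HC1 to HC3 without overlap (16.7%, beside 8.4% of all genes) and 3 below (8.33%, beside 7.85%), with a median log2 fold change of 0.31. With HC4 among the controls, 0 of the 36 lay above all controls (beside 2.88% of all genes) and 2 below (5.56%, beside 2.6%). Ndufa3, an accessory subunit, was measured at 6.51, 13.2 and 3.71 CPM in HC1 to HC3, at 35.2 CPM in HC4 and at 17.6, 18.9, 24.9 and 23.7 CPM in H51 to H54 (log2 fold change 1.93, SE 0.43, adjusted p = 0.106, edgeR). In complexes II to IV 3 of 24 genes lay above without overlap (12.5%, beside 8.4% of all genes), among them Cox5a of cytochrome c oxidase, which HC4 exceeded at 25.8 CPM (log2 fold change 1.21, SE 0.35, adjusted p = 0.153, edgeR). With HC4 among the controls 0 of 24 did so (beside 2.88% of all genes) and 1 lay below (4.17%, beside 2.6%). HC4 lay above all 5 MPa libraries for 17 of the 24 (beside 31.9% of all genes). Of 17 ATP synthase genes 3 lay above (17.6%, beside 8.4%), among them Atp5g2, a c-ring subunit, with 8.95, 18.3 and 7.61 CPM in HC1 to HC3, 45.5 CPM in HC4 and between 34.2 and 63.2 CPM at 5 MPa. None of the 17 lay above once HC4 was added (beside 2.88% of all genes), and HC4 exceeded all 5 MPa libraries for 10 of the 17. The medians of the nuclear lists lay between 0.31 and 0.51, against 3.74 for the mitochondrial genes. They turned over all 24 libraries, to -0.16 for complex I, -0.12 for complexes II to IV and -0.051 for ATP synthase, and within run 2, to -0.32, -0.45 and -0.32. The genes of mitochondrial transcription and translation had a median of 0.24. Of these 2 of 20 lay above HC1 to HC3 (10.0%, beside 8.4%) and 0 with HC4 (beside 2.88%).

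After the genes past the threshold, the protein-coding genes with the lowest p on the higher side, among those whose groups did not overlap, were Psma3, a proteasome subunit, Mcts1, a translation factor, Kpna3, an importin of the nuclear pore route, Tmem50b, Slitrk6 and Crot, a peroxisomal enzyme that moves fatty acyl groups to carnitine. None passed the threshold, with adjusted p between 0.0742 and 0.0896. Psma3 was measured at 30.7, 39.4 and 19.7 CPM in HC1 to HC3, at 35.8 CPM in HC4 and between 39.6 and 46.6 CPM at 5 MPa. Mcts1 was at 2.71, 7.31 and 2.00 CPM in HC1 to HC3, at 1.62 CPM in HC4 and between 8.44 and 13.3 CPM at 5 MPa, so both genes stayed above HC4 too. Tmem50b was at 1.36, 3.02 and 1.52 CPM in HC1 to HC3 and at 7.13, 8.42, 8.49 and 7.41 CPM at 5 MPa, a narrow range that also held HC4 (7.20 CPM).

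On the lower side stood Scn8a, a voltage-gated sodium channel, Grip2, a scaffold protein known from synapses, Gm45717, Zfyve27, the cation channel Trpm5, Gpsm1 and Tmub2, with adjusted p between 0.0573 and 0.102. Scn8a was measured at 12.2, 6.99 and 20.6 CPM in HC1 to HC3, at 1.20 CPM in HC4 and at 3.92, 3.02, 2.11 and 4.63 CPM in H51 to H54. Grip2 was at 865.0, 728.7 and 2463 CPM in HC1 to HC3, at 590.8 CPM in HC4 and between 211.1 and 386.5 CPM at 5 MPa, which puts all 4 controls above all 5 MPa libraries. Tmub2 showed the same order with smaller steps, from 19.5 to 28.7 CPM in HC1 to HC3, 18.8 CPM in HC4 and 13.6 to 17.3 CPM at 5 MPa. Gm45717, which shares 94.2% of its words with other genes, had no count at 5 MPa and in HC4, and 0.159 CPM in HC2 against 4.61 and 4.38 CPM in HC1 and HC3. Taking 3 counts in each 5 MPa library as the floor, its mean was at least 17.7-fold lower at 5 MPa than in HC1 to HC3. This bound rests on HC1 and HC3 (17 and 46 counts), as HC2 held 1 count. The gene shares 51.2% of its words with Ifitm2 and was not summed with it.

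Of 33 cartilage matrix genes, 9 lay below HC1 to HC3 without overlap (27.3%, beside 7.85% of all genes) and 2 above (6.06%), and the median log2 fold change was -0.52. The median turned to 0.43 over all 24 libraries, 2.05 within run 2 and 0.033 with library sizes alone, and was -0.23 over the 8 hip cap libraries with HC4. The 9 were Acan, Hapln1, Col9a1, Col9a3, Col11a1, Matn1, Matn3, Cnmd and Vit, of which aggrecan and its link protein Hapln1 hold the water of the matrix. None passed the threshold. With HC4 among the controls 0 of 33 lay below (beside 2.6% of all genes). HC4 was below all 5 MPa libraries for 30 of the 33 (beside 41.2%). Acan was measured at 10390, 6407 and 9545 CPM in HC1 to HC3, at 976.3 CPM in HC4 and at 4065, 4858, 2376 and 5643 CPM in H51 to H54 (log2 fold change -1.05, SE 0.52, adjusted p = 0.348, edgeR). The lowest p of the list was that of Vit, which encodes the matrix protein vitrin (log2 fold change -1.23, SE 0.45, adjusted p = 0.229, edgeR). Of the 10 chondrocyte markers, 7 lay below without overlap (70.0%, beside 7.85% of all genes). Acan, Hapln1, Col9a1, Col11a1, Matn3 and Cnmd are in both lists, so the marker sums are no separate measure of the cell make-up. The part of the cell make-up was not tested.

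Prg4, which encodes lubricin, the lubricant of the joint surface, was one of the 2 matrix genes on the higher side and was singled out after its values were seen. It was measured at 4382, 3169 and 2467 CPM in HC1 to HC3, at 4944 CPM in HC4 and at 10600, 6667, 8197 and 5141 CPM in H51 to H54. All 5 MPa values lay above all 4 controls, but the fit gave a log2 fold change of 0.13 (SE 1.77, adjusted p = 0.988, edgeR). Col10a1, the collagen of hypertrophic chondrocytes, was at 6483, 6318 and 6994 CPM in HC1 to HC3, at 725.7 CPM in HC4 and at 3123, 4461, 2550 and 5071 CPM in H51 to H54, and the fit gave -0.11 (SE 2.58). In the fit of the 7 hip cap libraries alone, without batch terms, the values were 1.20 for Prg4 (adjusted p = 0.171, edgeR) and -0.79 for Col10a1 (adjusted p = 0.222), closer to the ratios of the levels. Among 20 chondrocyte transcription factors 4 lay below without overlap (20.0%, beside 7.85% of all genes), among them Nkx3-2, at 28.2, 16.7 and 18.8 CPM in HC1 to HC3, at 3.88 CPM in HC4 and between 8.49 and 15.8 CPM at 5 MPa. Adding HC4 to the controls left 0 of 20 below (beside 2.6% of all genes). HC4 was below all 5 MPa libraries for 19 of the 20 (beside 41.2%).

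Of 29 genes of cytokines and their signalling, 13 lay above HC1 to HC3 without overlap (44.8%, beside 8.4% of all genes) and 0 below (beside 7.85%). On the higher side 12 had an unadjusted p under 0.05, beside 8.35% of all genes, and the median log2 fold change was 1.07. The median was 0.13 over the 8 hip cap libraries with HC4 and turned to -0.12 over all 24 libraries and -0.62 within run 2. The 13 were the interleukins and their partners Il1a, Il1b, Il11, Il1r1 and Il1rn, the chemokines Cxcl1, Cxcl2, Cxcl5, Ccl2, Ccl5 and Ccl7, and Myd88 and Nfkbia of the NF-kB pathway. None passed the threshold. Ccl2, which attracts monocytes, was measured at 11.9, 14.3 and 8.28 CPM in HC1 to HC3, at 158.2 CPM in HC4 and at 43.1, 40.0, 42.9 and 22.8 CPM in H51 to H54 (log2 fold change 1.87, SE 0.45, adjusted p = 0.126, edgeR). The control HC4 exceeded every 5 MPa library for 14 of the 29 genes, and with it 1 of 29 lay above all controls (3.45%, beside 2.88% of all genes). Il1b, singled out after its values were seen, was low throughout, at 0.814, 0.636 and 0.951 CPM in HC1 to HC3, at 13.5 CPM in HC4 and between 0.978 and 3.03 CPM at 5 MPa. Leaving out H53, the 5 MPa library with the most macrophage and neutrophil markers, gave the same counts of 13 above and 0 below, beside 11.6% and 9.86% of all genes. Leaving out a library can only keep or raise such counts, so the part of H53 was not tested by this.

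Immediate early and mechanically induced genes gave 9 of 30 above HC1 to HC3 without overlap (30.0%, beside 8.4% of all genes) and 0 below (beside 7.85%), with a median log2 fold change of 0.49, which was 0.032 over all 24 libraries and -0.31 within run 2. They were the Fos relatives Fosl1 and Fosl2, the zinc finger factors Egr1, Egr2 and Egr3, Nr4a3, Ier3, the prostaglandin enzyme Ptgs2 and Inhba. Only Egr3 and Ptgs2 stayed above all 4 controls (6.67%, beside 2.88%), and they are given here for that reason, after their values were seen. Egr3 was measured at 2.99, 3.34 and 3.14 CPM in HC1 to HC3, at 4.52 CPM in HC4 and at 5.71, 4.77, 5.61 and 4.73 CPM in H51 to H54 (log2 fold change 0.61, SE 0.32, adjusted p = 0.381, edgeR). Ptgs2 was at 35.8, 45.0 and 38.6 CPM in HC1 to HC3, at 38.0 CPM in HC4 and between 46.0 and 62.0 CPM at 5 MPa, with a fitted log2 fold change of 0.06 (SE 0.53). Klf4, the member with the lowest p, overlapped between the groups (log2 fold change 0.94, SE 0.39, adjusted p = 0.28, edgeR).

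Matrix proteases and their inhibitors gave 7 of 24 above without overlap (29.2%, beside 8.4% of all genes) and 0 below (beside 7.85%). The median log2 fold change was 0.44, but -0.42 over all 24 libraries and -0.89 within run 2. The 7 were Mmp9, Mmp12, Mmp13, Mmp14, Adamts5, Adamts9 and Ctsb, of which Mmp13 cuts type II collagen and Adamts5 cuts aggrecan. Mmp13 was measured at 321.0, 684.6 and 369.7 CPM in HC1 to HC3, at 2230 CPM in HC4 and at 1007, 797.5, 1358 and 923.6 CPM in H51 to H54. Its fitted log2 fold change was 0.12 (SE 0.70), while Mmp14, a membrane-bound collagenase, had the lowest p of the list (1.06, SE 0.37, adjusted p = 0.201, edgeR). HC4 lay above every 5 MPa library for 18 of the 24 (beside 31.9% of all genes). With it 0 of 24 lay above all controls (beside 2.88%). Mmp9, also a marker of osteoclasts, was at 195.4, 288.5 and 161.9 CPM in HC1 to HC3, at 2590 CPM in HC4 and between 307.0 and 980.7 CPM at 5 MPa.

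Antioxidant genes and metallothioneins gave 9 of 24 above without overlap (37.5%, beside 8.4% of all genes) and 1 below (Keap1, 4.17%, beside 7.85%), with 9 at an unadjusted p under 0.05 on the higher side (beside 8.35%). The median log2 fold change was 0.47, but -0.24 over all 24 libraries and -0.62 within run 2. The 9 were Sod2, Sod3, Gpx1, Prdx6, Txn1, Gclc, Slc7a11, Mt1 and Mt2. Gclc, the catalytic subunit of the enzyme that starts glutathione synthesis, was measured at 17.9, 20.5 and 22.1 CPM in HC1 to HC3, at 46.9 CPM in HC4 and at 34.7, 37.7, 47.7 and 32.7 CPM in H51 to H54 (log2 fold change 1.00, SE 0.27, adjusted p = 0.141, edgeR). Mt2, a metal-binding protein singled out after its values were seen, was at 11.1, 19.2 and 17.9 CPM in HC1 to HC3 and close together at 78.0, 78.5, 82.2 and 72.0 CPM at 5 MPa, but at 313.5 CPM in HC4. With HC4 among the controls 0 of 24 lay above (beside 2.88% of all genes).

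**Figure D4:**
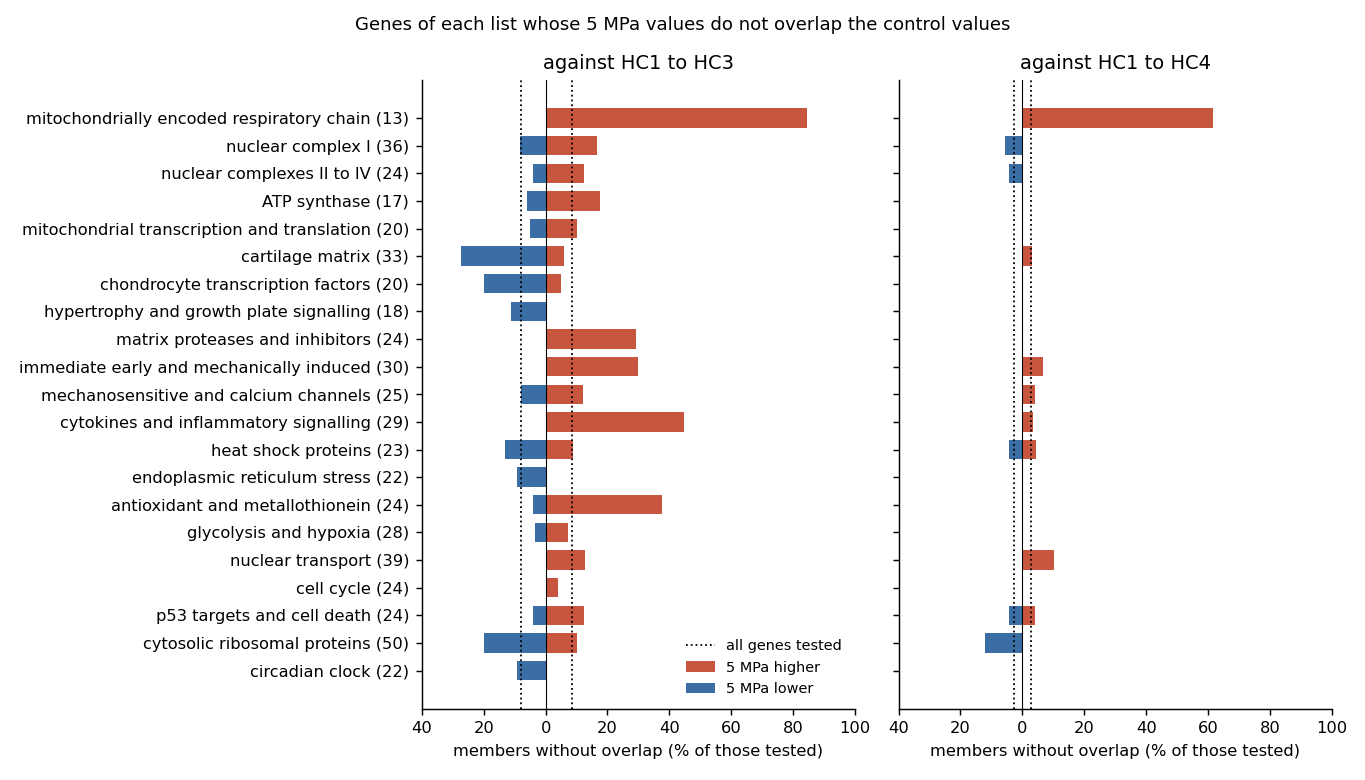
Share of the tested genes of each list (number in parentheses) whose 5 MPa values lie above (red, to the right) or below (blue, to the left) all control values, for HC1 to HC3 (left panel) and with HC4 added (right panel). Dotted lines mark the shares over all genes tested, 8.4% and 7.85% on the left and 2.88% and 2.6% on the right, and with HC4 the mitochondrial genes stand out at 61.5%.

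Nuclear transport, the process that Nutf2 serves, had 5 of 39 genes above without overlap (12.8%, beside 8.4% of all genes), namely Kpna3, Kpna6, Nup98, Nup153 and Nup214, and 0 below, and 4 of 39 with HC4 (10.3%, beside 2.88%). Nup153, a protein of the nuclear pore basket singled out after its values were seen, was at 33.9, 51.3 and 30.0 CPM in HC1 to HC3, at 51.2 CPM in HC4 and at 59.2, 60.9, 60.1 and 53.2 CPM in H51 to H54 (log2 fold change 0.68, SE 0.18, adjusted p = 0.141, edgeR). Cytosolic ribosomal proteins were split, with 5 of 50 above (10.0%, beside 8.4%) and 10 below (20.0%, beside 7.85%), and 6 of 50 below with HC4 (12.0%, beside 2.6% of all genes). Rpl19 of the large subunit was at 923.4, 404.0 and 998.6 CPM in HC1 to HC3, at 381.2 CPM in HC4 and between 251.0 and 320.1 CPM at 5 MPa (log2 fold change -1.14, SE 0.31, adjusted p = 0.145, edgeR). Ribosomal protein genes are known for many processed pseudogenes, and how reads were divided with these was not tested.

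The remaining lists are given by their counts without overlap, beside 8.4% above and 7.85% below over all genes. Mechanosensitive and calcium channels gave 3 of 25 above and 2 below, with the lowest p in Panx1, a membrane channel that releases ATP, whose values overlapped (log2 fold change 1.45, SE 0.47, adjusted p = 0.178, edgeR). Heat shock proteins gave 2 of 23 above and 3 below, with the lowest p in the co-chaperone Dnaja1 (1.03, SE 0.29, adjusted p = 0.148, edgeR). Hypertrophy and growth plate signalling gave 0 of 18 above and 2 below, and its lowest p was that of the growth factor Igf1, whose values overlapped (1.78, SE 0.59, adjusted p = 0.191, edgeR). Glycolysis and hypoxia gave 2 of 28 above and 1 below, with the lowest p in the carbonic anhydrase Car2. Car2 was at 0.271, 0.477 and 0.476 CPM in HC1 to HC3 (1, 3 and 5 counts). At 5 MPa it lay between 1.54 and 4.68 CPM, a range that also held HC4 (4.09 CPM). The lists of cell cycle (1 of 24 above, 0 below), p53 targets and cell death (3 of 24 above, 1 below), endoplasmic reticulum stress (0 of 22 above, 2 below) and the circadian clock (0 of 22 above, 2 below) held none that passed. Within them Casp9, the initiator caspase of the mitochondrial route of apoptosis, lay below all 4 controls, at 21.4, 15.9 and 23.3 CPM in HC1 to HC3, at 18.9 CPM in HC4 and between 13.5 and 15.4 CPM at 5 MPa. Pcna, the sliding clamp of DNA replication, had the lowest p of the cell cycle list (log2 fold change 1.24, SE 0.30, adjusted p = 0.12, edgeR), and its values overlapped.

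**Figure D5:**
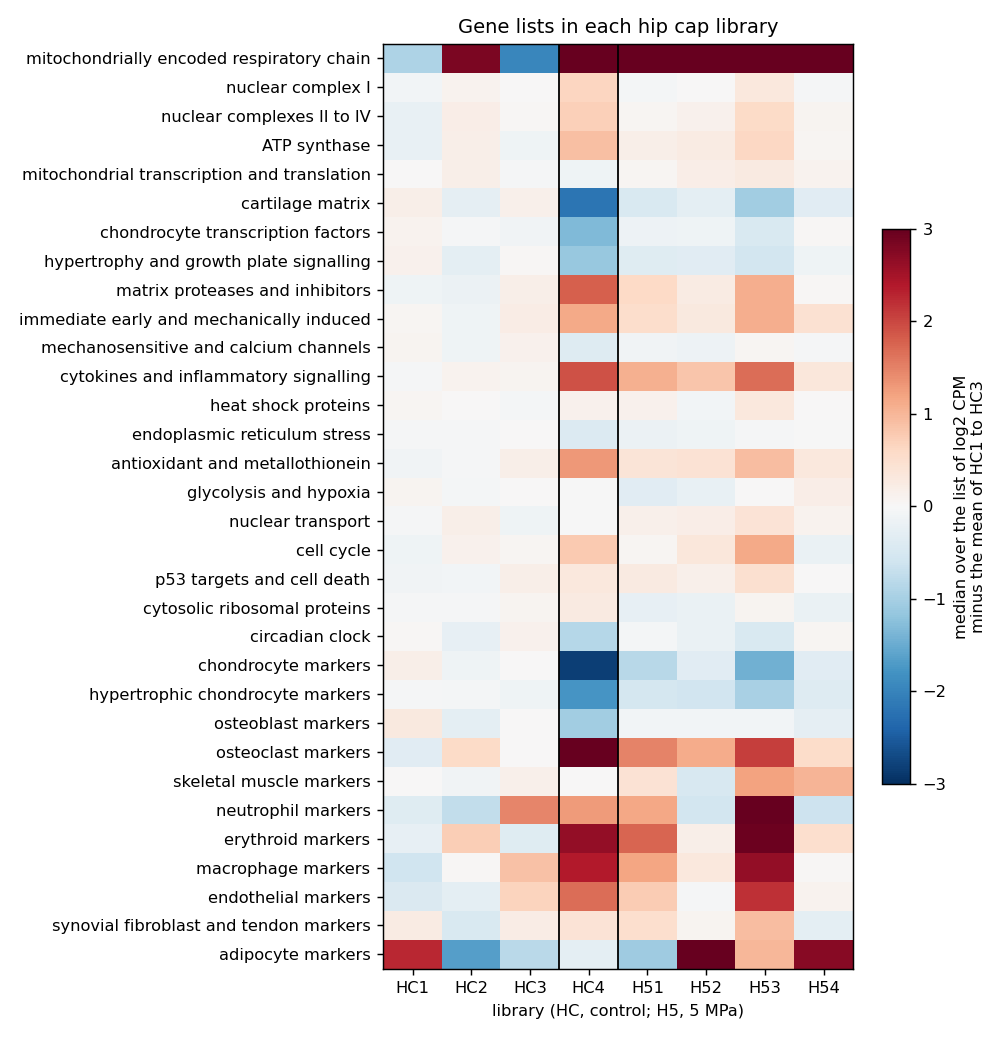
Median over each gene list of log2 CPM minus the mean of HC1 to HC3 (colour, limited to 3 either way) in each hip cap library. Mitochondrially encoded genes are high in all 5 MPa libraries but also in HC2 and HC4. Among the 5 MPa libraries, H53 lies closest to HC4 in cartilage matrix (-1.05 against -2.20 in HC4) and in cytokines (1.68 against 1.92).

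The protein-coding genes of the study's own table for 5 MPa alone, together with Wscd2, which the study names apart from that table, make 12 genes. They were chosen on these same samples and are thus no independent evidence. None passed here in edgeR's test, while the study's calls were made with DESeq2. An unadjusted p under 0.05 was found for 7 on the higher side (beside 8.35% of all genes) and for 3 on the lower (beside 6.42%). Without overlap, 6 of the 12 lay above (50.0%, beside 8.4% of all genes) and 1 below (8.33%, beside 7.85%). Abhd15 had the highest log2 fold change (3.53, SE 0.85, adjusted p = 0.12, edgeR). It was at 0.543, 0.636 and 0.856 CPM in HC1 to HC3 (2, 4 and 9 counts). At 5 MPa it lay between 1.17 and 5.25 CPM, a range that also held HC4 (5.08 CPM). Its mean level at 5 MPa was 3.78-fold that of HC1 to HC3, less than the fitted change. Olfr1380, an olfactory receptor gene, was at 0, 1.11 and 0.285 CPM in HC1 to HC3 and between 1.90 and 3.80 CPM at 5 MPa, against 24.8 CPM in HC4. Fam81a, Alg8, Fpr1 and Mpp5 had log2 fold changes of 1.15, 1.13, 3.43 and 0.55, with Fpr1 and Mpp5 overlapping. Wscd2 was at 124.0, 97.4 and 130.6 CPM in HC1 to HC3, at 14.2 CPM in HC4 and at 65.7, 86.3, 35.0 and 95.2 CPM in H51 to H54 (log2 fold change -1.36, SE 0.39, adjusted p = 0.156, edgeR). Tg, Adgrb1 and Rap1gap2 overlapped, with log2 fold changes of -2.06, -1.87 and -0.78. With HC4 among the controls 0 of the 12 lay above (beside 2.88% of all genes) or below (beside 2.6%).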

How the data were processed

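RNA of mouse hip caps and metatarsals was sequenced after depletion of ribosomal RNA. The submitters' processing notes name Trim Galore 0.6.5, kallisto, DESeq2 and the build GRCm39, and by the study's methods transcript estimates were summed per gene with tximport. The authors deposited these estimated counts of 52178 genes in 24 libraries without normalization, and no column belongs to another series. GENCODE M21 (GRCm38) named 48845 of the genes and gave biotypes, GC content, coordinates and sequences. Counts were rounded to whole numbers and fitted with edgeR 4.0.16 (limma 3.58.1, R 4.3.3), using filterByExpr, TMM and the robust quasi-likelihood test over the 22 libraries the study used (without HC4 and one library at 50 MPa), with terms for the 6 groups, sequencing run and library type. Tests were two-sided, with Benjamini-Hochberg adjustment over all 21283 genes and a threshold of 0.05. The prior count was 2.

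The genes compared, the gene lists and the tests were chosen with earlier results of these data known. Genes named are all those past the threshold, the 8 protein-coding genes with the lowest p in each direction (mean of at least 1 CPM, groups without overlap), every mitochondrially encoded gene, the lowest p member and some of the most abundant members of each of 21 pathway lists, and the study's table with Wscd2. Genes named for other reasons are marked in the text, and the result of 1 further list is not reported here. The lists are described by counts, and no set test was run. A gene counted as a copy if it shared at least 25% of the 31-base words. The script was tested on simulated data with 200 changed genes, 100 at each fold size, and gave 4 false calls. Alternatives were DESeq2 1.42.0, other size factors and filters, fits without batch terms or with other libraries, the replicate number as a block, removal of a GC trend and leaving out single libraries. The fit with HC4 among 8 hip cap libraries, the sums with copies and the counts without H53 or HC2 were added after seeing the data. Replicate numbers did not pair the libraries, which come from different mice (residual correlations of 0.01, -0.07 and -0.05).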

Additional observations from a re-analysis of the deposited data

Results flagged for a closer look

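Values that lay apart from the other libraries of their group were found in 18 of 124 groups of 4 libraries. The measure was the gap to the nearest library as a share of the range. Its rate of about 1 in 20 holds for unrelated values. The items here share libraries, some were chosen on these data, and HC4 was known to stand apart. The count is thus not set against chance. In the 4 hip cap controls, HC4 stood apart in the summed levels of nuclear complex I (1088 CPM), matrix proteases and inhibitors (9356 CPM), cytokines and inflammatory signalling (1154 CPM), antioxidant genes and metallothioneins (4129 CPM) and osteoclast markers (4780 CPM), and in mt-Co2 (515.5 CPM), each time as the highest. It was the lowest in hypertrophic chondrocyte markers (3209 CPM) and in the sum of the study's table of 5 MPa genes with Wscd2 (140.9 CPM). HC3, the unstranded control, was the highest in Gm9968 (31.3 CPM) and Grip2 (2463 CPM). HC2 was the highest in mt-Atp8 (133.3 CPM), and HC1 in heat shock proteins (3829 CPM).

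Among the hip caps at 5 MPa, H53 was the highest in Nutf2-ps1 (28.7 CPM), nuclear complex I (877.0 CPM) and macrophage markers (694.7 CPM). H51 was the lowest in mt-Nd3 (90.4 CPM) and the highest in synovial fibroblast and tendon markers (2259 CPM), and H54 was the highest in skeletal muscle markers (77.9 CPM).

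The change at 5 MPa differed between hip caps and metatarsals, by the interaction in edgeR's quasi-likelihood test, for mt-Co2 (3.54 on the log2 scale), Nutf2-ps1 (2.75), Gm9968 (-4.21) and Gm28285 (-4.75). In the same test 0 genes passed when summed with their copies (2384 at an unadjusted p under 0.05), 0 over all 24 libraries (1239) and 1 without HC3. The interaction holds the same hip cap difference in which these genes passed. In the metatarsals themselves the log2 fold changes of these genes were 0.43, -0.10, 0.33 and -0.19.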

How the results depend on the processing

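Which genes passed the threshold depended strongly on the processing. Against 4 genes in hip caps and 4 in the interaction with tissue, the counts were 577 and 128 with DESeq2, 48 and 0 (1661 at an unadjusted p under 0.05) with library sizes alone, 41 and 7 without the filter on counts, 1 and 0 (1552) with at least 10 counts in every library, 2027 and 26 without batch terms, 2 and 0 (1239) over all 24 libraries, and 11732 and 9080 within run 2 with HC4 as the only control, where HC4 is assumed to vary like the other groups. Where a count is 0, the test was edgeR's and the number in parentheses is that at an unadjusted p under 0.05. It was 89 in hip caps over the 7 libraries alone, 0 (1259) with HC4 added to these, and 0 and 0 (3142 and 2384) with genes summed with their copies. With the mitochondrially encoded genes taken out of the fit and the tests it was 3 and 2, where mt-Co2 could not be called. Of these, the 4 genes were among the calls of DESeq2, the fit without batch terms and the replicate block, and 0 of the 2 genes called over all 24 libraries were among them. The replicate number as a block gave 176 genes in hip caps (138 higher, 38 lower) and 2 in the interaction, but the numbers are not a pairing, since 0 of 3 controls correlated best with their own number. Leaving out single libraries gave between 1 and 1265 genes in hip caps and between 1 and 578 in the interaction, with 1265 and 578 without HC2, 49 without H54, 11 without HC1 and 1 without HC3 or M504. RLE size factors and removal of a GC trend gave 5 and 4 genes in hip caps. With library sizes alone, the fold changes of the tested genes centred on 0.52 (log2). The causes were not tested.

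The direction of 70 genes was recomputed under the settings that gave them a value, and other genes, named only as members of a list, were not recomputed. The changes of direction were the following. Within run 2 the log2 fold change was reversed for Gm9968 (6.00), Slitrk6 (-0.24), Scn8a (1.69), Zfyve27 (0.31), Trpm5 (4.80), Gpsm1 (0.69), Ndufa3 (-0.54), Cox5a (-0.58), Vit (0.24), Col2a1 (2.21), Nkx3-2 (1.93), Igf1 (-0.44), Col10a1 (2.57), Mmp14 (-0.96), Mmp13 (-0.94), Ccl2 (-1.91), Csf1 (-0.69), Gclc (-0.11), Car2 (-0.37), Pcna (-0.60), Abhd15 (-0.80), Olfr1380 (-2.85), Fpr1 (-0.13), Fam81a (-0.43), Alg8 (-0.69), Tg (2.27), Adgrb1 (6.94), Rap1gap2 (1.09), Wscd2 (2.50), Col1a1 (-0.65), Mmp9 (-1.91), Il1b (-2.55), Il1a (-1.60), Egr1 (-0.34), Acan (2.30) and Mt2 (-1.83). Over all 24 libraries it was reversed for Col2a1 (0.54), Nkx3-2 (0.11), Col10a1 (1.49), Mmp14 (-0.25), Mmp13 (-0.60), Ccl2 (-0.79), Csf1 (-0.12), Olfr1380 (-1.53), Alg8 (-0.063), Rap1gap2 (0.014), Wscd2 (0.021), Mmp9 (-0.999), Il1b (-1.46), Il1a (-0.61), Acan (0.17) and Mt2 (-0.61). With HC4 among 8 hip cap libraries it was reversed for Ccl2 (-0.40), Olfr1380 (-1.17), Mmp9 (-0.42), Il1b (-1.03), Il1a (-0.12) and Mt2 (-0.24), with a GC trend removed for Mmp13 (-0.10) and Ptgs2 (-0.17), with library sizes alone for Col2a1 (0.033) and Col10a1 (0.33), without the filter for Col10a1 (0.08) and summed with copies for Gm28285 (0.28). Leaving out single libraries gave ranges across 0 for Col10a1 (-5.86 to 3.30), Prg4 (-2.76 to 3.22), Col2a1 (-0.93 to 0.059), Mmp13 (-0.39 to 0.80) and Ptgs2 (-0.41 to 0.54).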

Other observations

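Genes without a symbol in the annotation took 55.7%, 59.7% and 48.7% of the counts in HC1 to HC3, 40.7% in HC4 and between 27.5% and 45.3% at 5 MPa, and the most abundant single gene took between 25.1% and 40.6% in HC1 to HC3 and between 17.3% and 31.3% at 5 MPa. mt-Rnr2, the larger mitochondrial rRNA, was measured at 3034, 18080 and 830.3 CPM in HC1 to HC3, at 2369 CPM in HC4 and at 8886, 5042, 8734 and 12710 CPM in H51 to H54. HC4 was thus low for mt-Rnr2 and high for the mitochondrial messages (9611 CPM), while HC2 was the highest of the 8 libraries for both rRNAs.

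Adipocyte markers differed between libraries of the same group, with 38.5, 3.50 and 4.28 CPM in HC1 to HC3, 30.5 CPM in HC4 and 5.35, 154.7, 23.1 and 52.9 CPM in H51 to H54. Skeletal muscle markers stayed between 36.1 and 84.9 CPM in all 8 libraries, and erythroid markers between 2.32 and 31.6 CPM. Col1a1, the main collagen of bone and tendon, was measured at 528.8, 495.2 and 969.1 CPM in HC1 to HC3, at 3625 CPM in HC4 and at 1476, 849.9, 5354 and 494.7 CPM in H51 to H54, so that H53 was the highest and H54 the lowest of the 8. Csf1, the growth factor of macrophages and osteoclasts, was at 63.8, 64.0 and 92.6 CPM in HC1 to HC3, at 272.2 CPM in HC4 and at 126.6, 108.5, 274.5 and 84.3 CPM in H51 to H54.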
